A study of Homo sapiens with 6 samples.

Results

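The granins are acidic secretory proteins that fill the dense-core granules of endocrine cells and neurons. The genes described here are those of the granin cargo proteins VGF, SCG2, SCG3 and CHGB and of PTPRN, a protein of the granule membrane. They are the 5 rows with these gene names among the 2128 genes listed in each of 6 RNA-seq tables. These members were chosen with their levels in both groups known, so their difference between the groups is described below and not tested.

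Libraries were made from SNU668, an established line of gastric signet-ring carcinoma cells. The study compared 3 libraries titled shControl, whose genotype is given as WT, with 3 titled shGPER, whose genotype is given as a knockdown of GPER, the G protein-coupled estrogen receptor encoded by GPER1. All cells came from that line, and the labels give no treatment, no time, no number of hairpins or clones, and no statement that libraries of a group were separate cultures, so a p-value here reflects the spread among libraries alone, which may be technical. Values are TPM, the share of a gene among all transcripts of a library after division by transcript length and scaling to a fixed total, so that levels of different genes can be set side by side.

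The targeted gene was checked first. GPER1 stood at 10.41 to 11.04 TPM in shControl and at 1.83, 2.41 and 2.47 TPM in shGPER. The level left was 20.7% of the control mean (log2 difference -1.87, SE 0.11; limma, adjusted p = 1.14e-06). The listed genes made up 4.66 to 6.42% of each library's TPM, read depth is unknown, and no counting error can be given. Most listed genes separated the groups: all 3 shGPER values lay above all 3 shControl values in 52.8% of the listed genes and below them in 42.6%. So the table holds a selection of genes whose rule is not stated in any source used here, and calls in it are not independent evidence of change. Of 15 markers of gastric mucous, chief and parietal cells, the table lists TFF1 alone, at 4.44 to 6.22 TPM in shControl and 0.26 to 2.91 TPM in shGPER, so the labelled cell type was not checked further.

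Cells with a regulated secretory pathway store peptide hormones and neuropeptides in dense-core granules and release them when calcium rises. Granins aggregate in the trans-Golgi network at low pH and high calcium, which helps to load the cargo, and prohormone convertases cleave several of them into peptides. In the stomach this machinery belongs to the enteroendocrine cells, which secrete hormones such as gastrin, somatostatin and ghrelin. Transcription of granin genes is known to be held down outside neurons and endocrine cells by the repressor REST, which binds a bipartite DNA element called RE1, and VGF is a classical target of the cyclic AMP-responsive factor CREB, which binds the element CRE.

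Promoter windows from 250 bases before to 50 after the annotated start were read from RefSeq (GRCh38.p14) for VGF, SCG3 and PTPRN. SCG2 and CHGB have no entry in that table. The windows are shown because the members share a direction of difference and because both elements above can be looked for in them. The VGF window (chr7:101165520-101165819, minus strand) holds 1 complete CRE, TGACGTCA, in capitals, at -79 to -72 from the start.

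VGF: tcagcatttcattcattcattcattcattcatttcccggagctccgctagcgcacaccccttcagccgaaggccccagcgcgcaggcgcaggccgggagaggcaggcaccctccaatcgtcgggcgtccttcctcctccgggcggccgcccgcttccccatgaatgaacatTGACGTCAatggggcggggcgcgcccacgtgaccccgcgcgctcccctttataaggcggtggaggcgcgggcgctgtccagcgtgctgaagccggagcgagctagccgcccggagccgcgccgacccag

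This CRE was found in 1.85% of all 35116 promoter windows and in 1.85% of the 2159 windows of listed genes, searched on both strands. The SCG3 window (chr15:51681253-51681552, plus strand) holds both arms of RE1 on the same strand, in capitals, the left arm TTCAGCACC at 9 to 17 and the right arm GGACAG at 26 to 31 after the start.

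SCG3: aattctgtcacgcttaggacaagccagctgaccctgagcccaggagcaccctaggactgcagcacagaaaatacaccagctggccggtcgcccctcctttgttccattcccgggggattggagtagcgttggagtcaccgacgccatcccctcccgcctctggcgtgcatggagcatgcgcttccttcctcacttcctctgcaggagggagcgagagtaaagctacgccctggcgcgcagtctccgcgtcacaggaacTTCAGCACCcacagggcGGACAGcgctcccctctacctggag

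The left arm alone was found in 0.376% of all windows and the right arm alone in 20.5%. Both, in this order on the same strand and with at most 10 bases between them, were found in 15 windows of 14 genes among 27305 genes. PTPRN has 2 annotated starts. The window of the upstream start (chr2:219309352-219309651, minus strand) has no complete CRE but 2 copies of its core, TGACG or its complement CGTCA, in capitals.

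PTPRN: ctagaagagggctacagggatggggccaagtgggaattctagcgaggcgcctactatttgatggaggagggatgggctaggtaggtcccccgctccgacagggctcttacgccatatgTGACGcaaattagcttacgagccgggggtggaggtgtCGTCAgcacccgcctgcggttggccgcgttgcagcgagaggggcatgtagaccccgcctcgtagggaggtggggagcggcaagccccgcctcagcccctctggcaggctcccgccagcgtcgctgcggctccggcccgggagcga

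The core, which lies inside every complete CRE, was found in 24.6% of all windows, the SCG3 and VGF windows among them. The window of the other PTPRN start holds no CRE core. A match of letters is not a bound site, and no binding was measured.

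VGF, the precursor of several neuropeptides, was the most abundant of the 5 genes in shGPER cells. Its transcript was at 2.72, 2.84 and 3.11 TPM in shControl and at 35.07, 40.84 and 46.30 TPM in shGPER. The groups did not overlap, and the lowest shGPER library was 11.3 times the highest shControl library. VGF averaged 2.89 ± 0.20 TPM in shControl and 40.7 ± 5.62 TPM in shGPER (SD, n = 3 each), a ratio of 14.1. On the log2(TPM + 1) scale, which understates the change of low values, VGF differed by 3.42 (SE 0.11), the largest rise among the 1651 genes with at least 1 TPM in at least 3 libraries. VGF (ENSG00000128564) lies on chromosome 7, 101162509 to 101165593, minus strand (GRCh38, GENCODE release 29, like all gene positions and GC contents below).

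SCG2 encodes secretogranin II, the precursor of the peptide secretoneurin. It was at 3.46, 3.96 and 3.80 TPM in shControl and at 26.19, 26.06 and 27.27 TPM in shGPER. The shGPER libraries lay close together, with a coefficient of variation of 2.51%, against 13.8% for VGF in the same libraries. SCG2 averaged 3.74 ± 0.255 TPM in shControl and 26.5 ± 0.664 TPM in shGPER (SD, n = 3 each), a ratio of 7.09, and the log2 difference was 2.54 (SE 0.08). SCG2 (ENSG00000171951) lies on chromosome 2, 223596940 to 223602503, minus strand.

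SCG3, secretogranin III, binds other granins and cholesterol-rich granule membrane and so tethers cargo to it. It was barely present in shControl, at 0.16, 0.07 and 0.19 TPM, and reached 4.35, 3.96 and 4.26 TPM in shGPER. The ratio of the means, 29.9, was the highest of the 5 genes, but its denominator is small: single shGPER libraries were 20.8 to 62.1 times single shControl libraries. SCG3 averaged 0.14 ± 0.0624 and 4.19 ± 0.204 TPM (SD, n = 3 each), and the log2 difference was 2.19 (SE 0.10). SCG3 (ENSG00000104112) lies on chromosome 15, 51681353 to 51721031, plus strand, and 2 annotated non-coding genes on the opposite strand overlap it; they were not analysed here, and the sources used here do not say whether counting used strand.

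CHGB encodes chromogranin B, also called secretogranin I, a main soluble granule protein of chromaffin and other endocrine cells. It was at 0.35, 0.27 and 0.08 TPM in shControl and at 3.21, 3.31 and 3.17 TPM in shGPER. The shControl values varied by a coefficient of variation of 59.4% and the shGPER values by 2.23%. CHGB averaged 0.233 ± 0.139 and 3.23 ± 0.0721 TPM (SD, n = 3 each), a ratio of 13.8 with single libraries 9.06 to 41.4 times apart, and the log2 difference was 1.78 (SE 0.12). CHGB (ENSG00000089199) lies on chromosome 20, 5911430 to 5925361, plus strand.

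PTPRN, known as IA-2 or ICA512, is a transmembrane protein of the tyrosine phosphatase family without phosphatase activity that spans the granule membrane and is an autoantigen of type 1 diabetes. It was at 0.61, 0.53 and 0.40 TPM in shControl and at 2.41, 2.05 and 2.61 TPM in shGPER. The groups did not overlap, but the distance was the smallest of the 5 genes, with the lowest shGPER library at 3.36 times the highest shControl library. PTPRN averaged 0.513 ± 0.106 and 2.36 ± 0.284 TPM (SD, n = 3 each), a ratio of 4.59, and the log2 difference was 1.15 (SE 0.12). PTPRN (ENSG00000054356) lies on chromosome 2, 219289623 to 219309648, minus strand, with an annotated antisense gene across part of it that was not analysed here.

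**Figure D1:**
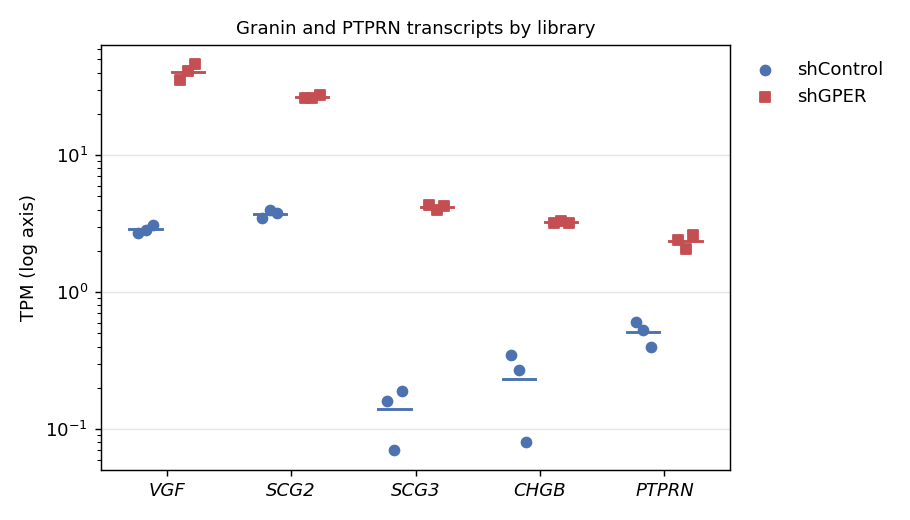
TPM of the 5 genes in each library on a log axis. Circles are the 3 shControl and squares the 3 shGPER libraries, in the order of their replicate numbers, and lines are group means. In each gene all squares lie above all circles, from the 35.07 to 46.30 TPM of VGF down to the 2.05 to 2.61 TPM of PTPRN in shGPER.

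All 5 members had their 3 shGPER values above their 3 shControl values, as had 47.3% of the tested genes, while 50.1% had them all below; nothing is read from this because the members were chosen on it. SCG3, CHGB and PTPRN reached 1 TPM in the 3 shGPER libraries alone, so they passed the filter only through the group where they are high. The members' log2 differences ran from 1.15 to 3.42 with a median of 2.19, beside a median of -0.49 over all tested genes. In order of size, VGF ranked 1, SCG2 ranked 10, SCG3 ranked 19, CHGB ranked 52 and PTPRN ranked 366 among the 1651 tested genes. These ranks restate values by which the members were chosen. In bulk RNA, more cells with a transcript and more transcript per cell cannot be told apart.

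The order of levels changed between the groups. In shControl it ran SCG2, VGF, PTPRN, CHGB, SCG3, and neighbours were separated in every library except CHGB and SCG3, whose values overlapped. In shGPER it ran VGF, SCG2, SCG3, CHGB, PTPRN, with no overlap between neighbours. VGF and SCG2 changed places: VGF was 0.774 ± 0.0517 times SCG2 in shControl and 1.53 ± 0.182 times SCG2 in shGPER (SD, n = 3 each). PTPRN went from the third place to the last. The exchange of VGF and SCG2 holds for TPM as deposited: with the GC trend of each library removed, as described below, the difference of SCG2 (3.37) was larger than that of VGF (2.29).

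Relative abundance within a library does not depend on the scaling to the library total. The 5 genes summed to 7.30, 7.67 and 7.58 TPM in shControl and to 71.23, 76.22 and 83.61 TPM in shGPER, a ratio of means of 10.2. VGF and SCG2 together made up 88.2 ± 3.28% of this sum in shControl and 87.3 ± 1.09% in shGPER (SD, n = 3 each). Their joint share overlapped between the groups, while the makeup inside it shifted from SCG2, with 49.7 ± 2.15% and then 34.5 ± 2.10%, to VGF, with 38.4 ± 2.25% and then 52.7 ± 3.16%. SCG3 held 1.87 ± 0.844% of the sum in shControl and 5.47 ± 0.557% in shGPER. CHGB held 3.12 ± 1.90% and 4.21 ± 0.375%, ranges that overlap. These shares were computed without removing the GC trend, under which, as above, SCG2 had the larger difference of the pair.

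The membrane gene took a smaller place beside the cargo. PTPRN stood at 9.12, 7.42 and 5.57 per 100 TPM of the 4 cargo genes in shControl and at 3.50, 2.76 and 3.22 in shGPER. The groups did not overlap, and the means were 7.37 ± 1.77 and 3.16 ± 0.373 (SD, n = 3 each). The cargo sum itself was 6.69 to 7.18 TPM in shControl and 68.82 to 81.00 TPM in shGPER.

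**Figure D2:**
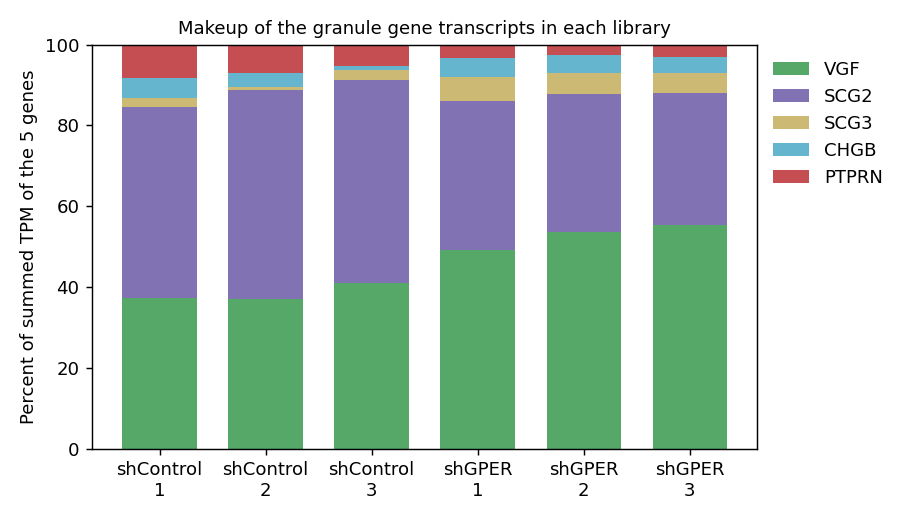
Stacked bars give each gene's percent of the summed TPM of the 5 genes in each of the 6 libraries. The VGF part lies between 37.0 and 41.0% in shControl and between 49.2 and 55.4% in shGPER, and the PTPRN part between 5.28 and 8.36% and between 2.69 and 3.38%.

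Base composition separated the members from each other. Across the tested genes the log2 difference went up by 0.84 for each 10 percentage points of transcript GC content. Tested genes were split into 10 strata of equal size by GC content. VGF falls in the most GC-rich, with a median of 69.6% over its annotated transcripts, and PTPRN has 60.9%, CHGB 52.3%, SCG2 43.3% and SCG3 41.9%. In the stratum that holds SCG3 (39.8 to 42.4% GC), 7.98% were called higher and the median log2 difference was -0.95, and SCG3 had the highest of the 163 differences. In the stratum that holds SCG2 (42.5 to 44.8% GC), 13.6% were called higher, the median was also -0.95, and SCG2 ranked 2 of 162. VGF ranked 1 of 163 in its stratum, whose median was 1.10, and CHGB ranked 5 of 163 in a stratum with a median of 0.68. PTPRN was near the middle of its stratum, with a log2 difference of 1.15 beside a median of 1.14 and a rank of 74 of 163. That stratum (58.7 to 61.6% GC) rests on the median GC content of 19 annotated PTPRN transcripts, whose median length is 582 bases. The longest of them, of 5099 bases, has 56.7% GC, outside that stratum, and a rank at that value was not computed. The PTPRN value after removal of the GC trend, given below, rests on the same median. All ranks within strata use the difference on which the members were chosen, so they describe that difference and do not test it.

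**Figure D3:**
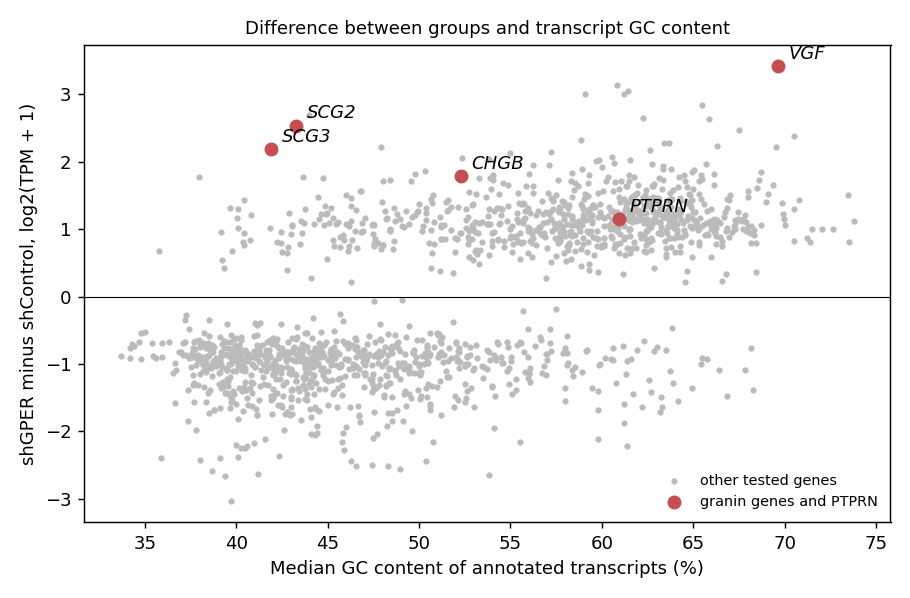
Log2 difference between the groups (shGPER minus shControl) against the median GC content of a gene's annotated transcripts, for tested genes with a GC value (grey) and the 5 members (red). SCG2 and SCG3, at 43.3 and 41.9% GC, lie far above the mostly negative values of genes of like GC content. PTPRN lies inside the cloud at its median GC content of 60.9%. The members were chosen on the difference shown.

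When the trend of each library with GC content was removed, the members' differences were 3.37 for SCG2, 3.07 for SCG3, 2.29 for VGF, 1.75 for CHGB and 0.23 for PTPRN. Of the 1626 genes in that fit, SCG2 then ranked 2, SCG3 ranked 3, VGF ranked 9, CHGB ranked 60 and PTPRN ranked 562. Like the ranks above, these come from the contrast on which the members were chosen and test nothing. That trend comes from selected genes that nearly all separate the groups, so the adjusted value sets a member against genes of similar base composition. Among the shGPER libraries the GC trend also differed, with a slope of 0.12 per 10 percentage points between libraries 1 and 3, and VGF differed between them by 0.39 on the log2 scale while SCG2 differed by 0.06 and SCG3 by -0.02. The part of base composition in the VGF values was not tested.

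The promoter search led to other genes. The 14 genes with both RE1 arms in a window are BSX, CKMT1A, CKMT1B, DRD3, GRIA2, GRM2, KCNH6, LHX3, SCG3, SLC39A3, SYN1, TPH2, UNC13A and UNC80. The table lists 6 of these 14, with 7 of the 15 windows, and 1456 of all 27305 genes with a window. In each of the 6, SCG3 included, the shGPER mean was above the shControl mean. UNC13A, which primes vesicles for fusion, was at 0.14, 0.28 and 0.10 TPM in shControl and at 1.63, 1.80 and 1.88 TPM in shGPER; it passed the filter through shGPER alone, which fixed its direction. CKMT1B, a mitochondrial creatine kinase, was at 4.07, 4.48 and 5.05 TPM and at 18.70, 20.85 and 16.55 TPM (limma, adjusted p = 1.27e-06); its near-identical copy CKMT1A, at 0.21 to 0.90 and 0.84 to 3.13 TPM, may share its reads. The metabotropic glutamate receptor gene GRM2, at 0.01 to 0.04 and 0.29 to 0.47 TPM, and the synapsin gene SYN1, at 0.02 to 0.29 and 0.25 to 0.65 TPM, were too low to test. SYN1 and CKMT1A overlapped between the groups, and the other 4 lay wholly higher in shGPER, as did 52.8% of all listed genes; with so few genes from a selected table, nothing particular to RE1 is read from this. REST is not among the listed genes by name, so its level is unknown here, and its part in these values was not tested.

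**Figure D4:**
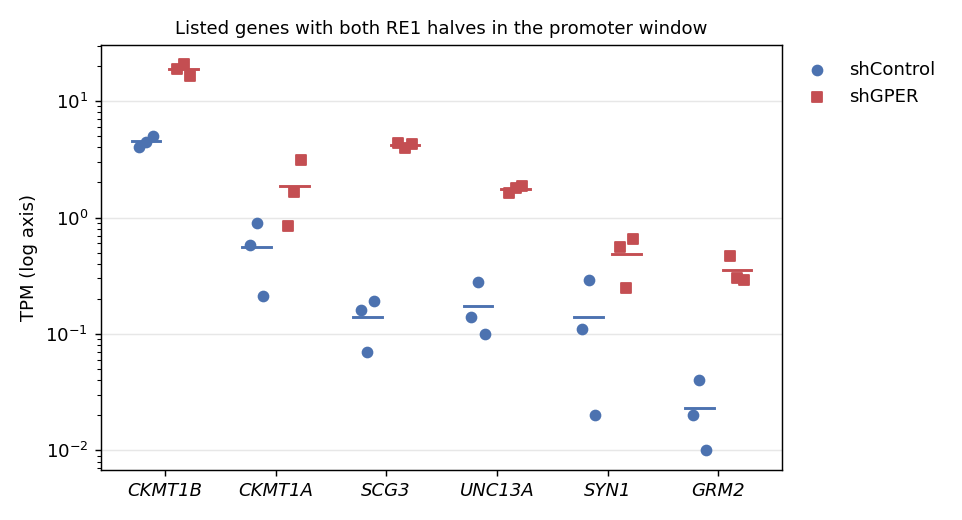
TPM on a log axis of the 6 listed genes whose promoter window holds both RE1 arms, with circles for the 3 shControl libraries, squares for the 3 shGPER libraries and lines for group means. SCG3, UNC13A, CKMT1B and GRM2 have no overlap between the groups.

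Other genes of the secretory pathway were taken from 9 lists that were not picked for how genes moved, though written with earlier results of these data known. Beside the members, the lists hold 362 genes, of which the table lists 54 and 36 were tested. Of these 36, 31 rose and 5 fell (limma, adjusted p under 0.05), with a median log2 difference of 1.13. Over all tested genes 47.8% rose and 50.6% fell, so that nearly every gene of the table is called. The direction of 8 of the 36 was fixed by the filter, since a whole group of their libraries was under 1 TPM. With the GC trend removed 20 of the 36 were higher and 4 lower, beside 31.5% and 31.1% of all genes in that fit.

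The other granin genes in the list, CHGA, SCG5 and PCSK1N, are not among the listed genes by name, so their levels are unknown here. Among 86 peptide hormone, neuropeptide and neurotrophin precursors, the table lists 4, of which 3 were tested and rose. The remaining gene, EDN2, endothelin 2, too low to test and named after its values were seen, went the other way, at 0.61, 0.58 and 0.77 TPM in shControl and 0.10, 0.52 and 0.24 TPM in shGPER. CGA, the common alpha chain of the glycoprotein hormones, was at 0.11 to 0.44 TPM in shControl and 1.45 to 1.88 TPM in shGPER, and RLN2, relaxin 2, at 0.21 to 0.53 and 1.04 to 1.81 TPM. ADM2, adrenomedullin 2, was at 0.77 to 1.13 and 2.16 to 2.65 TPM (limma, adjusted p = 0.000204) and turned lower with the GC trend removed (log2 difference -0.32, adjusted p = 0.0291). Both CGA and RLN2 passed the filter through shGPER alone, which fixed their direction. These levels lie under those of VGF and SCG2.

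Of 4 tested processing enzymes 3 rose and 1 fell. PAM, which amidates the C-terminus of peptides, was at 0.64 to 1.09 TPM in shControl and 1.84 to 2.07 TPM in shGPER (log2 difference 0.68, SE 0.12; limma, adjusted p = 0.000621), and QPCT, which forms N-terminal pyroglutamate, at 1.69 to 1.79 and 3.66 to 4.41 TPM (0.86, SE 0.10; limma, adjusted p = 6.02e-05). The tyrosylprotein sulfotransferases went apart, TPST2 rising by 1.12 (SE 0.13; limma, adjusted p = 4.32e-05) and TPST1 falling by 0.88 on the log2 scale (SE 0.10; limma, adjusted p = 3.39e-05). TPST2 lost its call without the GC trend (adjusted p = 0.305), and PAM lost its call with quantile normalization (adjusted p = 0.0858). The prohormone convertases PCSK1 and PCSK2 and the carboxypeptidase CPE are not among the listed genes by name, so their levels are unknown here.

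Among granule membrane genes beside PTPRN, SYT7, a calcium sensor of granule exocytosis, was at 0.62 to 0.70 and 2.44 to 3.22 TPM and passed the filter through shGPER alone, which fixed its direction. ICA1L, a relative of the islet autoantigen ICA1, fell (2.90 to 3.37 and 1.07 to 1.54 TPM; limma, adjusted p = 0.000139). Neither kept its call without the GC trend (adjusted p = 0.101 and 0.968). The difference of SYT7, 1.15 (SE 0.12) at 61.4% GC, stood beside that of PTPRN, 1.15 at 60.9% GC.

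Genes of granule biogenesis, transport and exocytosis gave 8 that rose and 3 that fell of 11 tested. The filter fixed the direction of 3 of the 11, all among those that rose, with AP3B2 and UNC13A among them. CPLX1, a complexin that clamps and triggers fusion, had a log2 difference of 2.47 (SE 0.14; limma, adjusted p = 1.02e-06) and KIF1C, a kinesin that carries dense-core vesicles, one of 1.54 (SE 0.08; limma, adjusted p = 6.57e-07). AP3B2, the neuronal AP-3 subunit, was at 0.09 to 0.16 TPM in shControl and 1.94 to 2.20 TPM in shGPER, a direction that the filter fixed. The granule GTPase gene RAB26 rose (7.63 to 9.38 and 19.61 to 21.43 TPM). Its log2 difference went from 1.19 to 0.25 without the GC trend (limma, adjusted p = 0.0409). Among those that fell was RAB27B, a GTPase that docks granules, at 6.09 to 7.50 and 2.29 to 2.37 TPM (limma, adjusted p = 8.09e-06). It stayed lower without the GC trend (log2 difference -0.35, limma, adjusted p = 0.0128). ARFIP1, named after its values were seen, also fell, with a log2 difference of -0.94. Without the GC trend its difference was -0.015 and its call was lost (limma, adjusted p = 0.877). The list therefore did not move in 1 direction, and without the GC trend 7 of the 11 were higher and 2 lower.

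All 4 tested synaptic vesicle genes rose, with log2 differences from 1.06 to 3.01. SYP, the vesicle protein synaptophysin, led them at 2.52 to 3.34 TPM in shControl and 30.22 to 31.94 TPM in shGPER, the latter between the levels of VGF and SCG2 in those libraries. DNM1, a dynamin of vesicle retrieval, was at 46.12 TPM in shGPER library 1 and at 16.09 and 16.90 TPM in libraries 2 and 3. Of the 4 SYP alone was still called without the GC trend (log2 difference 2.22), and BSN, DNM1 and SYNGR3 were not. BSN had passed the filter through shGPER alone. Over all tested genes 47.8% rose, and in the GC strata that hold PTPRN and VGF 86.5 and 90.8% did. Nothing particular to this list is read from its count.

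**Figure D5:**
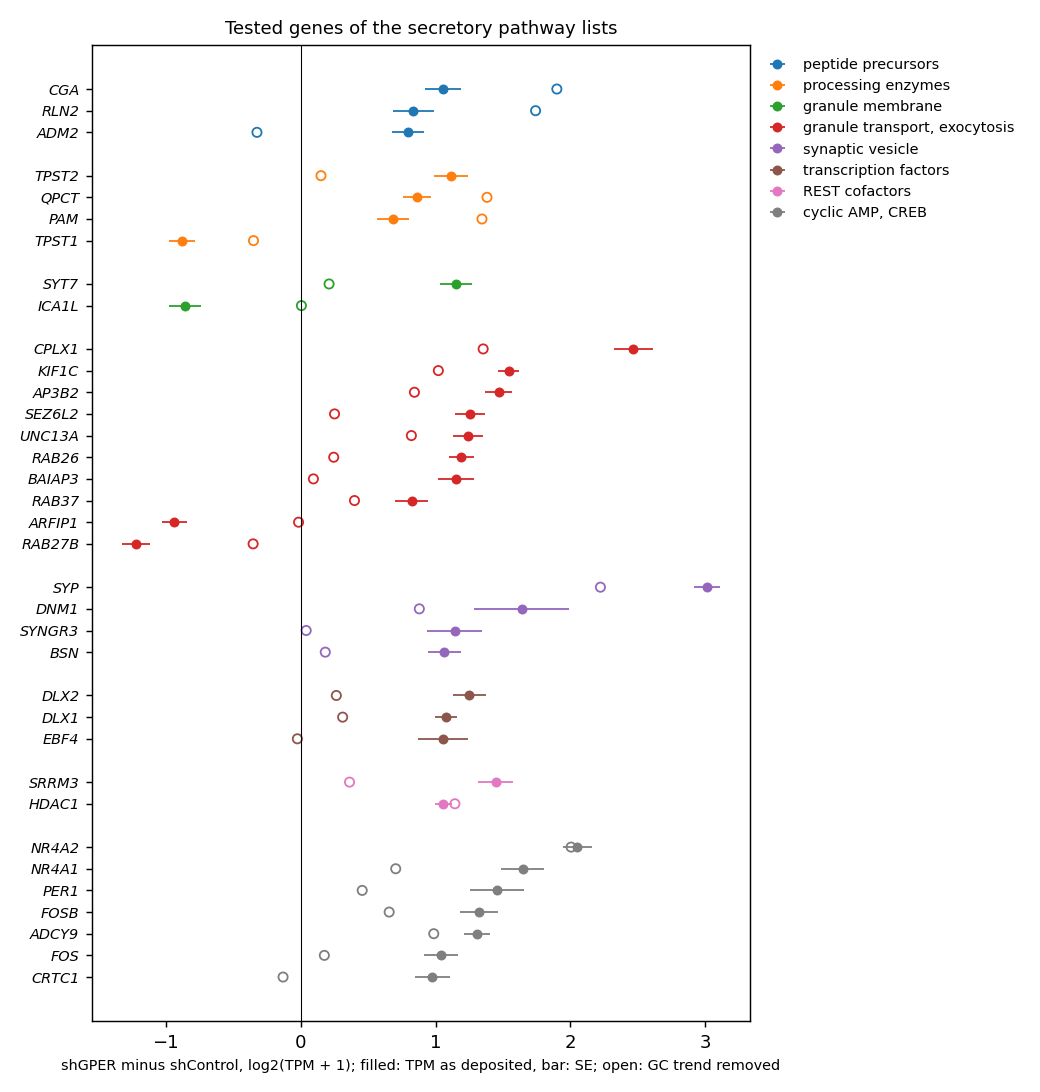
Log2 differences of tested genes of the lists, without the members and 1 gene not reported here, grouped by list. Filled points are the values from TPM as deposited with their SE, and open circles the values after removal of the GC trend. Of the filled points 31 lie above 0 and 4 below.

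Transcription factors of endocrine and neuronal cells were listed mostly at low levels. Of 11 listed factors 3 were tested, the homeobox genes DLX1 and DLX2 and the EBF family gene EBF4, and each rose, with log2 differences of 1.08, 1.25 and 1.06. Without the GC trend these were 0.31, 0.26 and -0.024, and EBF4 lost its call (adjusted p = 0.912). Of the 11 genes, 10 had all shGPER values above all shControl values. So had 52.8% of all listed genes and 47.3% of the tested ones, so listed genes too low to test lay above more often. Most of the 11 were too low to test, and nothing particular to these factors is read from the count. Among the 10 was the islet factor gene NKX6-1 at 0.09 to 0.26 and 0.77 to 0.98 TPM, named after its values were seen. The endocrine factors NEUROD1 and INSM1 are not among the listed genes by name, so their levels are unknown here. Of the REST cofactor list HDAC1, a histone deacetylase, was at 31.97 to 35.98 and 69.62 to 70.93 TPM (limma, adjusted p = 1.18e-06), and SRRM3, a neural splicing factor, at 3.12 to 4.08 and 10.02 to 12.93 TPM (limma, adjusted p = 9.9e-06). Without the GC trend the log2 difference of HDAC1 went from 1.06 to 1.14. That of SRRM3 went from 1.45 to 0.36 (limma, adjusted p = 0.0355).

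All 7 tested genes of cyclic AMP and CREB signalling rose, with a median log2 difference of 1.32, and 4 stayed higher without the GC trend. Over all tested genes 47.8% rose, and 31.5% of those in the other fit were higher without the GC trend. In the GC strata that hold CHGB, PTPRN and VGF, 55.2, 86.5 and 90.8% of the genes were called higher. Nothing particular to this list is read from its counts. The direction of 1 of the 7, FOSB, was fixed by the filter, at 0.34 to 0.61 TPM in shControl and 2.42 to 3.40 TPM in shGPER. FOSB is the gene at that median and is among the 4. NR4A2, a nuclear receptor induced by CREB, had log2 differences of 2.05 as deposited and 2.00 without the trend, and ADCY9, an adenylyl cyclase, 1.31 and 0.99. CRTC1, a coactivator of CREB, was at 1.22 to 1.52 and 3.10 to 4.27 TPM, but its difference was -0.13 without the GC trend (adjusted p = 0.265). CREB1 itself is not among the listed genes by name, so its level is unknown here, and its part in the VGF values was not tested.

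Markers of other cell types that could carry granules were listed in small numbers. Beside SCG2, SCG3 and CHGB the table lists SYP and the somatostatin receptor gene SSTR2 of 15 neuroendocrine markers, with a summed level of 9.84 to 11.85 TPM in shControl and 57.64 to 61.16 TPM in shGPER. Of 18 neuronal markers it lists PRPH and RBFOX3, with a sum of 0.38 to 0.62 and 1.46 to 2.01 TPM. The glial marker GFAP was at 0.02 to 0.50 and 0.61 to 1.18 TPM. It lists 6 of 11 fibroblast and endothelial markers, with a sum of 9.54 to 12.00 and 39.39 to 41.88 TPM, of which COL1A1 made up 28.77 to 30.12 TPM in shGPER. Of the 5 tested among them 2 rose, 2 fell and 1 was not called (limma, adjusted p under 0.05); the 2 that fell were the fibroblast genes DCN, from a mean of 2.73 to 1.36 TPM, and LUM, from 2.52 to 1.20 TPM, and with the GC trend removed both turned to differences above 0 without a call (0.22 and 0.23; adjusted p = 0.256 and 0.0798). It lists none of 10 mast cell and leukocyte markers. No listed marker was at 0 in all libraries. The part of other cells in the granin values was not tested.

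The genes nearest in pattern were found by the Euclidean distance between log2(TPM + 1) profiles over the 6 libraries, each centred on its mean. With 2 groups far apart this mainly finds genes with a difference of like size. VGF was nearest to HMOX1, heme oxygenase 1 (distance 0.390), and to the reticulon gene RTN2 (0.516). SCG2 was nearest to ZNF468 (0.233) and the kinase gene MKNK2 (0.329), SCG3 to the tropomyosin gene TPM4 (0.183) and to NALF2 (0.260), and CHGB to ZHX2 (0.243) and the transporter gene SLC16A14 (0.259). PTPRN was nearest to RELB, an NF-kB subunit (0.182), and TEX19 (0.187). No member had another member among its 2 nearest genes; the closest pair was SCG2 and SCG3, at a distance of 0.479.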

How the data were processed

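Each of the 6 deposited tables holds the TPM of 1 library, computed by the authors; total RNA went through a stranded mRNA library kit, per the labels' protocols. Of tools, the submitters' notes list RSEM, HISAT2 and fastp without versions, settings or roles, and hg38 as the build. Because TPM keep no read depth, count models were not applied.

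The model was limma 3.58.1 on log2(TPM + 1) in R 4.3.3, with an intensity trend in the prior and two-sided tests. Adjustment was Benjamini-Hochberg over all 1651 genes with at least 1 TPM in at least 3 libraries, with a threshold of 0.05. The model was tested on simulated data with independent noise, mostly unchanged genes and no GC trend. Nearly every tested gene is called in the real data, so that check does not carry over to the calls here. Alternatives were a pseudocount of 0.1, no filter, a stricter minimum of 5 TPM, quantile normalization, centring on the median, a replicate block, removal of a natural spline of GC content with 3 degrees of freedom, and leaving out each library. GC values exist for 98.5% of the tested genes.

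The members, gene lists, motifs and tests were chosen with earlier results of these data known. Named genes are the members, GPER1, the 2 nearest genes of each member and, of each list, every tested gene or, above 6, the 6 with the smallest p; others are said to be chosen after their values were seen, and the RE1 genes follow from the motif. Protein features were not computed because no protein table was given. Some listed genes enter the counts but are not reported here. Tables were handled with Python 3.11.15, numpy 2.4.6 and pandas 2.3.3.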

Additional observations from a re-analysis of the deposited data

How the results depend on the processing

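The 5 members kept the direction of their log2 difference in every alternative that gave a value. They were chosen on that direction, and their groups did not overlap. A pseudocount, a filter, a replicate block or leaving out a library could therefore not reverse it, and nothing is read from this. The filter of 5 TPM left VGF and SCG2 alone. With a pseudocount of 0.1 the differences were 3.76 for VGF, 2.79 for SCG2, 4.20 for SCG3, 3.42 for CHGB and 2.01 for PTPRN, so the order of the members depends on the pseudocount and SCG3 then stood first. Median centring, which moves all genes by 0.15, gave 3.57, 2.69, 2.34, 1.94 and 1.30 in the same order, and quantile normalization 2.60 for SCG2, 2.02 for SCG3, 1.50 for CHGB and 0.71 for PTPRN. Without the GC trend they were 2.29 for VGF, 3.37 for SCG2, 3.07 for SCG3 and 0.23 for PTPRN. Leaving out a library gave 3.32 to 3.52 for VGF, 2.49 to 2.57 for SCG2, 2.14 to 2.22 for SCG3, 1.69 to 1.85 for CHGB and 1.09 to 1.22 for PTPRN. PTPRN per 100 cargo TPM then had means of 6.50 to 8.27 in shControl and 2.99 to 3.36 in shGPER.

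Of the listed genes of the secretory lists 31 were called higher; the count was 47 without a filter, 17 with the filter of 5 TPM, which tests fewer genes, and 20 without the GC trend, and 31 without any single library. Without the GC trend the differences of EBF4, CRTC1, ICA1L and ADM2 turned to -0.024, -0.13, 0.0058 and -0.32. The cause was not tested. No sign was seen that the replicate numbers pair the libraries, though 3 libraries per group cannot settle this. Same-numbered libraries had correlations of their deviations of 0.03, -0.09 and 0.01. With a replicate block 31 genes were again called higher and 5 lower. The unknown depth limits the low shControl values of SCG3, CHGB and PTPRN.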

Other observations

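The gene annotation deposited with the TPM places the members in the secretory pathway by different terms. SCG2, SCG3, CHGB and PTPRN carry terms with the words secretory granule, as do 28 listed genes in all, and VGF does not. VGF and PTPRN share terms on the response to cAMP, carried by 9 listed genes, and on insulin secretion, carried by 25. The 4 granin genes share the term endoplasmic reticulum lumen, carried by 38 listed genes, and PTPRN does not carry it.

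Within 200 kb of the 5 genes the table lists a single other gene, SLC23A3, which lies 119527 bases from PTPRN. It was at 0.22 to 0.33 TPM in shControl and at 1.12 to 1.36 TPM in shGPER. VGF and SCG2 share no 31-base word with transcripts of other genes, and SCG3 and PTPRN share 0.569% and 0.0709% of theirs. CHGB shares 4.08%, with transcripts of 2330 genes.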
